A study of Mus musculus with 2 samples.

Results

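The loci of Hand1 and Hand2, a pair of related transcription factor genes, were examined for p300 binding in the embryonic mouse, in heart and in midbrain of day 11.5. Each locus was taken as a window of 500 kb on the mm9 build, chromosome 8 from 59.6 to 60.1 Mb for Hand2 and chromosome 11 from 57.4 to 57.9 Mb for Hand1, and its members were the listed p300 peaks with their midpoint inside. This gave 16 of the 3597 peaks of the heart list, 14 in the Hand2 window and 2 in the Hand1 window, and 0 of the 2786 peaks of the midbrain list. The Hand2 window was selected on its number of listed heart peaks, the longest run of the heart list. Whether the peaks were chosen by exactly the reads counted below is not given in the sources used here, and 20 of the 3597 listed heart peaks held only 1 of these reads. Peak numbers and the heart excess at listed heart peaks are therefore descriptions and were not tested.

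Hand1 and Hand2 encode basic helix-loop-helix proteins that pair with other proteins of this class and bind the short DNA element called the E-box. Both genes are needed for heart formation in the mouse, where Hand2 is best known for the right ventricle and outflow tract and Hand1 for the left ventricle. Hand2 also acts in limb buds, branchial arches and sympathetic neurons. p300 is a histone acetyltransferase that is recruited to many active enhancers, and reads from p300-bound DNA therefore serve as a map of candidate enhancers.

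Both tissues came from CD-1 embryos of mixed sex, with tissue of about 150 embryos pooled into 1 library per tissue, so a difference between tissues has no replicate check and no p-value is given. The labels name heart and midbrain, with no transgene, mutation or treatment in either group. The protocol text shared by both libraries names forebrain, midbrain and limb as the dissected tissues and does not describe the heart. Depth differed 4.50-fold, with 1303861 aligned heart reads and 5869671 aligned midbrain reads, so 1 read counted 0.767 rpm in the smaller heart library and 0.170 rpm in the other (rpm, reads scaled to 1e6 aligned reads). Defining marker genes of either tissue were not checked, because no gene annotation of the mm9 build was used here. In a pooled tissue, more cells with p300 at a site and more p300 per cell cannot be told apart.

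The genes around both loci were read from the gene order of RefSeq, which is on another build (GRCm38.p6), so only names are given. The protein-coding neighbours of Hand2 were Adam29, Glra3, Hpgd, Cep44 and Fbxo8 on one side and Scrg1, Sap30, Hmgb2, Galnt7 and Galntl6 on the other. Those of Hand1 were Gria1, Fam114a2, Mfap3, Galnt10 and Sap30l on one side and Larp1, Gm12248, Cnot8, Gemin5 and Mrpl22 on the other. Each Hand gene thus has a SAP30 family gene (Sap30 or Sap30l, subunits of the Sin3 histone deacetylase complex) and a Galnt gene (Galnt7 or Galnt10, enzymes that start mucin-type O-glycosylation) among its neighbours. The noncoding RNA genes Hand2os1 and Hdnr stand close to Hand2 in the same gene order, one on each side. Because the builds differ, no p300 peak was placed within or beside a particular gene of either window.

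The stretch before the start of Hand2 is shown because it is the promoter of the gene that names the peak-rich window. It is the 250 bases before the start, on the plus strand, from RefSeq on GRCm38.p6, and capitals mark the matches of the motifs searched.
Hand2: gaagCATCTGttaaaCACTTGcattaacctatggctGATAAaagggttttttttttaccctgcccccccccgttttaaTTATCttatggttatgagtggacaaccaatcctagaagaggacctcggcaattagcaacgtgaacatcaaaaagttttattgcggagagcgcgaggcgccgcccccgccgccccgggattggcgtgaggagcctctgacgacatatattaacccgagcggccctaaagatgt
The promoter sequences used here held none for Hand1, so its promoter was not searched. Motifs were searched on both strands. The general E-box, spelled CANNTG, matched at 2 places, and 66.0% of 27025 mouse promoters of the same length held one. Its form CATCTG made up one of these places, and 14.5% of promoters held that form. The core of the GATA factor motif, GATAA, matched at 2 places, and 23.0% of promoters held it. The core of the Nkx2-5 motif, AAGTG, matched once, inside the other E-box, and 40.8% of promoters held it. No match was present for the E-box form CAGCTG, which 12.8% of promoters held. The T-box core GGTGTG was likewise without a match here and was held by 16.2% of promoters. The same was so for the Meis core TGACAG (held by 15.97% of promoters) and the Tead core GGAATG (held by 12.6%). A match is a description of the letters and not a bound site.

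At Hand2, heart p300 peaks formed 1 compact block. The first 12 of the 14 peaks, numbered here along the chromosome, lay within 21.02 kb, and the heart library held 126 reads over that stretch against 77 in the deeper midbrain library, a library-scaled ratio of 7.37 (exact 95% interval 5.50 to 9.91). Peaks 13 and 14 stood apart, 26.4 kb beyond peak 12 and 38.7 kb beyond peak 13. All 14 peaks together spanned 87.6 kb and covered 10.3 kb, or 2.06% of the window. They took 19.9% of the heart reads of the window (96 of 483 reads, Clopper-Pearson 95% interval 16.4 to 23.7) and 3.21% of its midbrain reads (43 of 1338, interval 2.34 to 4.30).

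**Figure D1:**
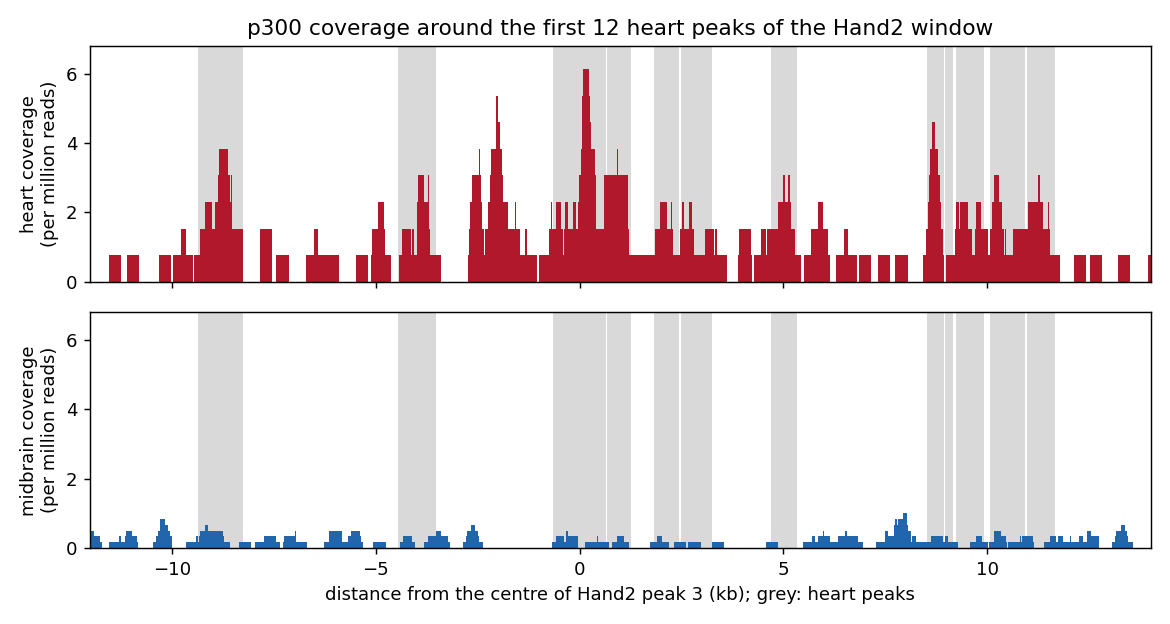
Deposited p300 coverage scaled to library size (y axis, reads per 1e6 aligned reads) against distance in kb from the centre of Hand2 peak 3 (x axis), heart above and midbrain below, with the 12 heart peaks of the compact block shaded grey. Heart coverage is highest in peak 3, and an unshaded site about midway between peak 2 and peak 3 stands nearly as high, while midbrain coverage stays low over all of the shaded peaks.

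Peak 3 was the strongest of the Hand2 window. It lay on chromosome 8 at 59801392 to 59802698 (mm9, 1307 bp), had rank 63 of the heart list and held 16 heart reads (12.3 rpm, exact Poisson interval 7.01 to 19.9) and 6 midbrain reads (1.02 rpm, interval 0.375 to 2.22). The heart over midbrain ratio was 12.005 (interval 4.46 to 37.5), and 41 peaks of the whole heart list, this one included, held as many heart reads or more. Up to 8 heart reads overlapped at one point of it, and up to 3 midbrain reads.

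Peak 1, the outermost on its side, lay at 59792692 to 59793795, had rank 305, held 11 heart and 7 midbrain reads (8.44 and 1.19 rpm) and had a ratio of 7.07 (interval 2.50 to 21.5). Peak 4 began 28 bp after the end of peak 3, at 59802727 to 59803307. It had rank 269 and held 8 heart reads against 2 (6.14 and 0.341 rpm), a ratio of 18.0 (interval 3.59 to 174). Peak 2 at 59797602 to 59798515 (rank 1481) and peak 11 at 59812105 to 59812961 (rank 1334) each held 7 heart reads and 4 from midbrain (5.37 and 0.681 rpm), which gave 7.88 (interval 2.003 to 36.7). These 5 peaks have the most heart reads of the Hand2 window, and the intervals of their ratios overlap one another.

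The weakest members rested on very few reads. Peak 9, at 59811009 to 59811209, was 201 bp wide and held 1 heart and 1 midbrain read (0.767 and 0.170 rpm), with a ratio of 4.50 whose interval ran from 0.0573 to 353. It had rank 2690 although no 2 lengthened heart reads overlapped within it, which was so at 16 of the 3597 peaks of the heart list. Peak 5, at 59803865 to 59804481, had rank 2815 and held 5 heart and 2 midbrain reads (3.83 and 0.341 rpm), a ratio of 11.3 (interval 1.84 to 118). Peak 6, at 59804544 to 59805290, had rank 3449 and held 5 heart reads and 1 midbrain read (3.83 and 0.170 rpm), a ratio of 22.5 (interval 2.52 to 1065). The other 6 peaks of the window held 6 heart reads each and 1 to 4 midbrain reads.

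Ratios at the 14 Hand2 peaks ran from 4.50 to 27.0, and no peak held fewer heart than midbrain reads despite the smaller heart library. Summed over the 14 peaks, the ratio was 10.05 (interval 6.95 to 14.8), against 7.99 (interval 7.82 to 8.17) over the whole heart list. The Hand2 interval includes the value of the whole list. Over the 46 runs of at least 5 heart peaks described below, the median ratio was 9.72, and 20 runs had a higher ratio than Hand2. The lower bound of the interval was above 2 at 9 of the 14 peaks, where 49.5% of all heart peaks were past that bound. It was above 1 at 13 of them, where the share over the list was 90.0%, and above 4 at peak 3 alone, where it was 17.1%. The median of 6 heart reads per Hand2 peak equalled that of the whole list, and the median midbrain reads were 2.5 against 3. Peak by peak the Hand2 members thus resembled other heart peaks in read number, and their ranks ran from 63 to 3449.

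**Figure D2:**
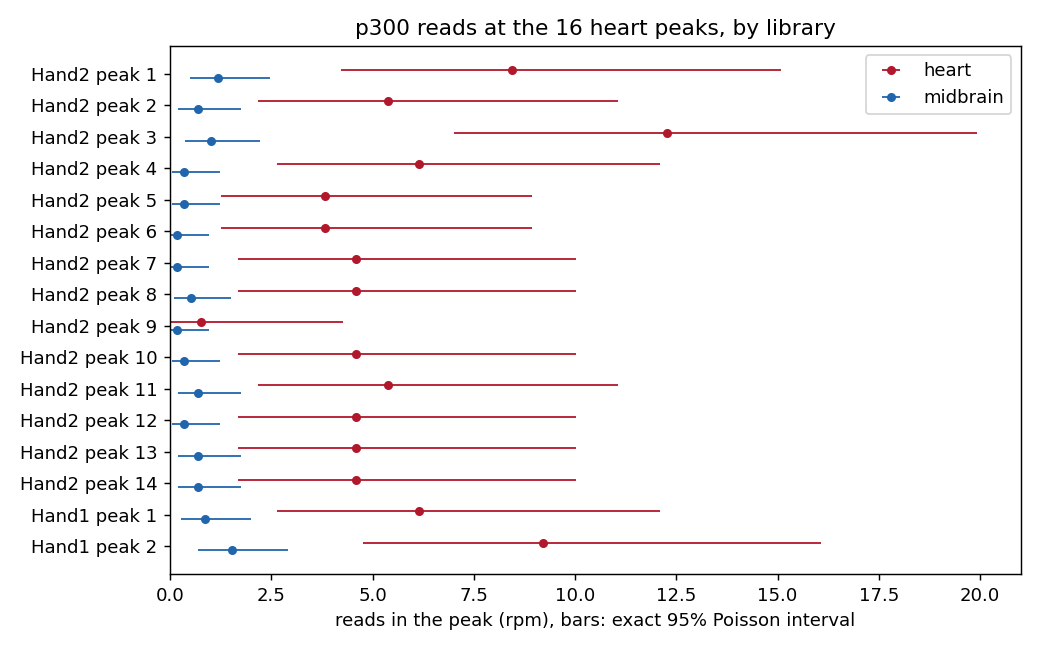
Reads in each of the 16 heart peaks in rpm (x axis), heart in red and midbrain in blue, with exact 95% Poisson intervals that cover counting error only. Heart points range from 0.767 rpm at Hand2 peak 9 to 12.3 rpm at Hand2 peak 3, and midbrain points lie at or below 1.53 rpm.

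The number of Hand2 peaks depended on how finely the region was divided. The gap to the next peak was under 200 bp at 6 places and under 1 kb at 7. When heart peaks less than 1 kb apart were joined, the 14 peaks became 7 regions. Peaks 3 to 6 formed a region of 3.90 kb in which 35 heart reads stood against 12 (ratio 13.1, interval 6.66 to 27.8), and peaks 8 to 12 one of 3.14 kb with 26 against 13 (ratio 9.004, interval 4.46 to 19.1). The other 5 regions were single peaks. Of the 46 runs of at least 5 heart peaks, each within 50 kb of the next, none held more listed peaks than the Hand2 run, but 5 had more joined regions and 2 had as many. Its 96 heart reads were the most of any run, a sum that rises with the number of peaks on which the run was selected. Its median was 6 heart reads per peak, and 16 runs had a higher median and 13 the same. In peaks per 10 kb, 11 runs were denser than its 1.60.

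Heart reads were also dense between the peaks of the block. In the 12.3 kb between the first and the twelfth peak that no peak covers, the heart library held 42 reads, as did the midbrain library, a ratio of 4.50 (interval 2.86 to 7.08). Heart read density there was 4.73 times that of the rest of the window outside peaks (interval 3.35 to 6.52), and midbrain density was 1.30 times (interval 0.933 to 1.77). Part of this came from a site absent from both lists, at 59799838 to 59800162, between peaks 2 and 3. Its heart coverage reached 7 reads, above that of 13 of the 14 listed peaks. Another unlisted site in the same gap, at 59799413 to 59799637, reached a heart coverage of 5 reads. The 600 bp around that site held 5 heart and 4 midbrain reads. The stretch of the first 12 peaks was chosen after its values had been seen.

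In bins of 10 kb, the Hand2 block stood out in the heart library alone. Its 3 adjacent bins held 31.4, 49.1 and 26.8 rpm of heart reads and 7.50, 4.77 and 6.30 rpm of midbrain reads. The 45 bins without a heart peak ranged from 1.53 to 13.04 rpm by heart reads, with a median of 5.37, and from 0.852 to 7.50 rpm by midbrain reads, with a median of 4.43. The highest of those heart bins was the one directly after the block. The bins of peak 13 and peak 14 each had 9.97 rpm in the heart, within the range of the bins without a peak.

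**Figure D3:**
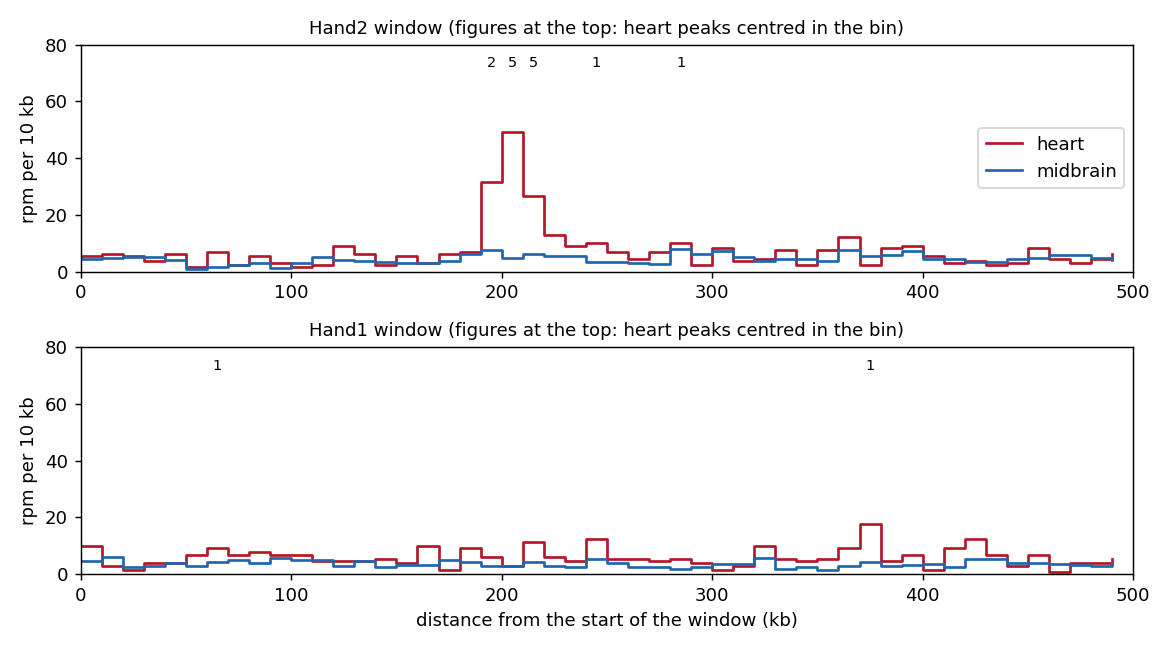
Reads in bins of 10 kb in rpm (y axis) along the Hand2 window (above) and the Hand1 window (below), against distance in kb from the start of the window (x axis), heart in red and midbrain in blue, with the number of heart peaks centred in a bin at the top. Heart reads rise to 49.1 rpm in the Hand2 block, while the highest bin of the Hand1 window has 17.6 rpm and holds 1 peak.

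At Hand1, p300 peaks were few and far apart. The window held 2 heart peaks with 310.1 kb between them, and both were well ranked. Hand1 peak 2, on chromosome 11 at 57775541 to 57776494 (mm9, 954 bp), had rank 115 and held 12 heart reads (9.20 rpm, interval 4.76 to 16.1) and 9 midbrain reads (1.53 rpm, interval 0.701 to 2.91). Its heart over midbrain ratio was 6.002 (interval 2.32 to 16.1). Hand1 peak 1, at 57464637 to 57465487 (851 bp), had rank 708 and held 8 heart reads (6.14 rpm, interval 2.65 to 12.1) and 5 midbrain reads (0.852 rpm, interval 0.277 to 1.99), with a ratio of 7.20 (interval 2.08 to 28.0). Coverage reached 6 heart reads in each peak, against 3 midbrain reads in peak 1 and 4 in peak 2.

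The lower bound of the ratio was above 2 at both Hand1 peaks, as at 49.5% of all heart peaks, and above 4 at neither, where the share over the list was 17.1%. Their summed ratio was 6.43 (interval 3.09 to 13.8), and this interval overlaps that of the 14 Hand2 peaks and includes the value of the whole list. No other heart peak of the list stood near either of them.

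**Figure D4:**
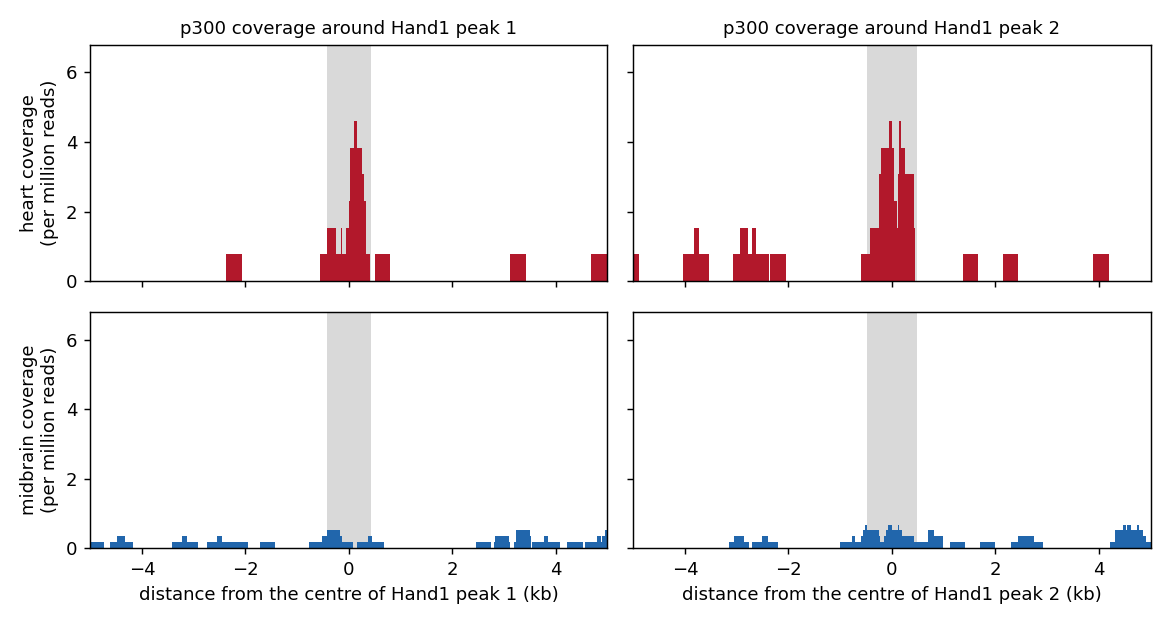
Deposited p300 coverage scaled to library size (y axis, reads per 1e6 aligned reads) within 5 kb of the centre of each Hand1 peak (x axis, distance in kb), heart above and midbrain below, with the heart peak shaded grey. In the heart, coverage reaches 6 reads, or 4.60 on the scaled axis, in each peak and is low on both sides.

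Midbrain reads were not absent from the heart peaks. Within the midbrain library, reads were 1.58 times as dense in the Hand2 peaks as in the window outside peaks (interval 1.14 to 2.14) and 3.59 times as dense in the Hand1 peaks (interval 1.95 to 6.05, from 14 reads). The same measure in the heart library, given as a description because these are peaks of the heart list, was 11.8 (interval 9.33 to 14.8) at Hand2 and 14.8 (interval 8.96 to 23.3) at Hand1. With the background taken 5 to 10 kb away from each peak instead, the heart values were 5.87 (interval 4.33 to 7.97) and 8.21 (interval 4.36 to 15.2). The midbrain values were not recomputed on that background. Midbrain reads came to 0.711 rpm per kb in the 14 Hand2 peaks, 0.582 between the first 12 and 0.451 outside peaks over the window. The midbrain value of 1.58 thus cannot tell a rise at the Hand2 peaks from a higher level around them.

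Neither window held a midbrain peak, which was also true of most of the genome: 29.8% of 5060 windows of 500 kb tiled along chromosomes 1 to 19 and X held at least 1. Heart peaks were present in 35.4% of the windows and at least 2 in 17.3%. At least 14 were present in 0.0198%, which is the single window that holds the Hand2 block. The Hand2 window was selected on its number of heart peaks, so this last share is a description only. Of the 875 windows with at least 2 heart peaks, 463 held no midbrain peak. The midbrain peaks nearest to the Hand2 window lay 491.6 kb before it, with 29 midbrain reads and 1 heart read, and 298.6 kb after it, with 36 and 0. Around the Hand1 window they lay 363 kb before it (20 midbrain and 0 heart reads) and 216 kb after it (16 and 2).

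The window edges did not cut through a group of peaks. The outermost heart peaks inside the Hand2 window lay 193 and 220 kb from its edges, and the next ones outside lay 107 kb before it, with 6 heart and 1 midbrain reads, and 4060 kb after it, with 5 and 0. In the Hand1 window the outermost peaks lay 65.1 and 124 kb from the edges. The next heart peaks outside lay 2163 kb before it (7 heart and 6 midbrain reads) and 555 kb after it (9 and 2).

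Over the whole windows the tissues differed by nearly the same ratio at both loci, although one held 14 heart peaks and the other 2. The Hand2 window held 483 heart reads (370.4 rpm) and 1338 midbrain reads (228 rpm), a ratio of 1.63 (interval 1.46 to 1.80). The Hand1 window held 392 heart reads (300.6 rpm) and 1091 midbrain reads (186 rpm), a ratio of 1.62 (interval 1.44 to 1.82). The deposited coverage gave the same picture, with a mean depth per base at Hand2 of 0.291 heart and 0.806 midbrain reads, and at Hand1 of 0.236 and 0.656.

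The parts of these totals were then compared between the loci. Heart reads were 1.23 times as many in the Hand2 window as in the Hand1 window (interval 1.08 to 1.41) and midbrain reads also 1.23 times (interval 1.13 to 1.33). Outside the peaks, heart reads per kb were 1.06 times those at Hand1 (interval 0.916 to 1.22), and midbrain reads per kb 1.22 times (interval 1.13 to 1.33). The heart over midbrain ratio outside peaks was 1.35 at Hand2 (387 and 1295 reads, interval 1.198 to 1.51) and 1.55 at Hand1 (372 and 1077 reads, interval 1.38 to 1.75). These intervals overlap. Without the block of 12 peaks the ratio outside peaks was 1.24 at Hand2 (interval 1.10 to 1.40). This division was chosen after the values had been seen.

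Such an excess outside the peaks was common in windows with heart peaks. The median ratio outside peaks was 0.806 over 3267 windows with no heart peak, 1.08 over 918 windows with 1, 1.24 over 751 windows with 2 to 4 and 1.45 over 124 windows with 5 or more. The Hand2 value of 1.35 lay between the quartiles of the last group (1.29 and 1.68), and the Hand1 value of 1.55 lay above the upper quartile of the windows with 2 to 4 (1.42). Among all 5060 windows, 87.3% had a ratio at or below that of Hand2 and 95.4% at or below that of Hand1. For heart reads alone the shares were 93.2% and 89.0%, and for midbrain reads alone 80.5% and 32.7%. The Hand1 window thus combined many heart reads with a midbrain density below the median, and the Hand2 window was read-rich in both libraries.

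**Figure D5:**
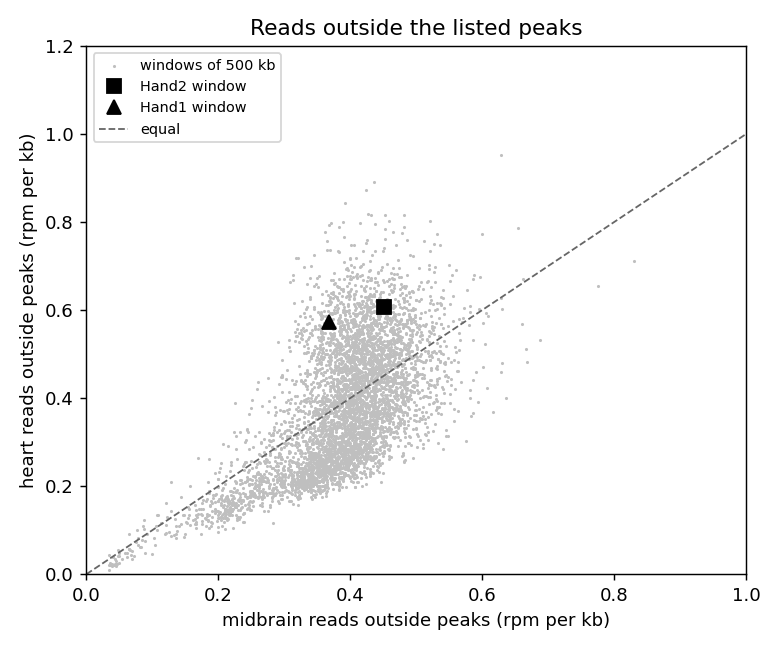
Reads outside the listed peaks per kb, in rpm, for windows of 500 kb (grey), midbrain on the x axis and heart on the y axis, with the Hand2 window as a square and the Hand1 window as a triangle; 4 of 5060 windows lie beyond the plotted range. Both loci lie above the dashed line of equal values, Hand2 at 0.606 and 0.451 rpm per kb in heart and midbrain and Hand1 at 0.573 and 0.368.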

How the data were processed

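p300-bound DNA of 1 heart and 1 midbrain library was analysed from files the authors deposited on mm9, as named in the submitters' processing notes. Aligned reads were deposited as 1 count per line, lengthened by the authors to 300 bp (all but 24 heart and 48 midbrain lines), with no position and strand repeated. The deposited signal track gives coverage by lengthened unique reads at 25 bp steps, not scaled to library size, per the file headers. In both windows 99.4% to 99.7% of its steps equalled the coverage at the middle base computed from the reads. The deposited peak lists hold a position and a rank. How these peaks were called, and against what control, is not given in the sources used here.

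Reads were placed at the midpoint of the lengthened read. This differs from placing by an estimated strand offset, which came to 91 bp for heart and 71 bp for midbrain (searched from 46 to 500 bp). How well that offset was defined was not measured. Counts were scaled to all aligned reads. Ratios carry exact conditional binomial, counts exact Poisson and shares Clopper-Pearson 95% intervals. All cover counting error only, because each tissue has 1 library and variation between samples could not be measured. The limit a count of 0 allows is 3 reads, or 2.30 rpm for heart and 0.511 rpm for midbrain. A called peak has a lower bound of the ratio above 2. Tiled windows needed at least 100 midbrain reads outside peaks (5060 of 5269).

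Position, rank, reads and ratio are given for all Hand1 peaks and, at Hand2, for the 5 peaks with most heart reads and the 3 with fewest (peaks 5 and 6 tied). No peak could be placed over a gene start. Members, windows and lists were chosen with earlier results of these data known. The software was scipy 1.17.1, numpy 2.4.6, pandas 2.3.3 and matplotlib 3.10.9 under Python 3.11.15.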

Additional observations from a re-analysis of the deposited data

Results flagged for a closer look

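A signal outside the listed peaks was picked out because it lies above the limit that a count of 0 allows. Between Hand2 peaks 2 and 3, on chromosome 8 at 59799838 to 59800162 (mm9), heart coverage reached 7 reads, and 8 heart reads (against that limit of 3) and 0 midbrain reads lay within the 600 bp around it, which gives a heart over midbrain ratio with a lower bound of 7.68. It stands in neither list. Unlisted sites were sought by a heart coverage of at least 4, and this one was the highest of both windows, so its ratio is a description. Other such sites also passed the limit, as on chromosome 11 at 57614913 to 57615112 (6 heart reads and 1 midbrain read). Over chromosomes 1 to 19 and X, 439 sites reached a heart coverage of 7, and 195 of them (44.4%, Clopper-Pearson 95% interval 39.7 to 49.2) overlapped a listed heart peak, so a site of this height outside the list was common. There were no control samples to set it against.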

How the results depend on the processing

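Among 56 alternatives, 8 moved a value beyond its interval, or a count by over 1.5 times, and 48 did not. No direction turned. All 26 alternatives of the heart over midbrain ratios, 24 planned and 2 added after the data had been seen, stayed within the reported intervals, though those that change scaling or read placement alone could hardly have moved them. Peak counts moved where peaks less than 1 kb apart were joined (7 heart peaks in the Hand2 window) and in the central 300 kb (1 in the Hand1 window). Requiring a lower bound above 4 left 1 Hand2 and 0 Hand1 peaks. Density in peaks over background moved with the background 5 to 10 kb away (5.87 at Hand2, 8.21 at Hand1; the cause was not tested) and with peaks widened by 500 bp (7.87 and 7.38), which take in sparser bases. Peaks of 1 to 16 heart reads limit every ratio of a single peak. No paired analysis was possible because each tissue has 1 library.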

Other observations

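The highest midbrain coverage of both windows lay outside every listed peak. In the Hand2 window, midbrain coverage reached 7 reads on chromosome 8 at 59965588 to 59965712 and at 60065888 to 60066087 (mm9), where the 600 bp around each site held 8 midbrain and 3 heart reads and 7 midbrain and 0 heart reads. In the Hand1 window it reached 7 reads on chromosome 11 at 57509713 to 57510012, with 11 midbrain reads and 1 heart read. Scaled to library size, the heart over midbrain ratios were 1.69, 0 and 0.409, in the order given. The intervals of all 3 ratios included 1 (upper bounds 7.03, 3.12 and 2.82), so a difference between the libraries was not detectable there at this depth. These sites were chosen for their height.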
